A study of Homo sapiens with 12 samples.

Results

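The genes described here are 10 angiogenic factors and receptors, VEGFA, VEGFB, VEGFC, PGF, ANGPT1, ANGPT2, ANGPTL4, KDR, FLT1 and FGF2. They were chosen by gene symbol, and all 10 were found among the 58302 genes of the deposited table. The study measured polyadenylated RNA of 2 human glioma cell lines, U251 and U87, with artesunate, a derivative of the antimalarial artemisinin, and without it. It holds 12 libraries in 4 groups of 3. U251 cells were exposed to 180 µM artesunate for 24 h, and U87 cells to 24.08 µM for 24 h. The controls of each line are labelled with DMEM culture medium only, so a solvent control is not stated, and all 12 samples carry day 9. The treatment label names artesunate, while the extraction text names artemisinin. Because the dose differs between the lines, line and dose cannot be told apart in any contrast of the U251 effect with the U87 effect. Each line is a single established line grown without host tissue. The labels do not say whether replicates are separate cultures, so p-values measure the spread between these samples, which may be technical.

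Angiogenic ligands are secreted proteins that act on receptors of endothelial cells. VEGFA, the main driver of vessel sprouting in glioma, and VEGFC signal through the receptor tyrosine kinase KDR (VEGF receptor 2), while VEGFB and PGF bind FLT1 (VEGF receptor 1), and VEGFC also drives lymphatic growth through FLT4. ANGPT1 and ANGPT2 are ligands of the receptor TEK, ANGPTL4 is a secreted inhibitor of lipoprotein lipase that hypoxia and PPAR factors induce, and FGF2 is a heparin-binding mitogen that acts through FGF receptors.

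Library totals ran from 13631985 to 17314284 counts. Levels are given as CPM (a gene's count divided by the library's total and put on a common scale) scaled with TMM factors, which adjust library sizes so that most genes do not differ. At these totals, 3 counts in a library, the limit that a count of 0 allows, equal 0.173 to 0.220 CPM; this limit and the intervals of count ratios cover counting error only. Pearson correlations between replicates (log2 CPM) were 0.985 to 0.987 in the other 3 groups and 0.972 to 0.981 in U87 with artesunate. A gene was called when its adjusted p was under 0.05 in edgeR's quasi-likelihood test (Benjamini-Hochberg over the 17150 genes with enough counts to be tested), which applies to every adjusted p below unless another tool is named. In bulk RNA, fewer cells of a type and less RNA per cell cannot be told apart. Of 11 astrocyte and glioma markers, 7 were at 1 CPM or more in each group, led by VIM at 3863 to 5883 CPM, whereas AQP4 was at 0 in all groups and SOX2 and ALDH1L1 were at 0 in both U87 groups. The 9 endothelial markers summed to only 3.19 to 6.66 CPM in any library, with PLVAP at 0 in all groups, beside 23.0 to 95.5 CPM (group means) of the receptor KDR.

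After artesunate, VEGFA, PGF and ANGPTL4 rose in U251 and fell in U87, and KDR fell in both lines (with the GC correction described below, the U87 falls of VEGFA and PGF were no longer called). In U251, 3 of the 9 tested members were called higher and 1 lower, where 4.09% and 4.26% of all tested genes were called higher and lower (8.34% in either direction, with 0 of the members higher in both lines against 1.48% of all tested genes). In U87, 2 were called higher and 7 lower, but there 58.3% of all tested genes were called, 29.2% in each direction, so a call in U87 sets a gene little apart. Among all tested genes, 1.67% were called higher in U251 and lower in U87, and 1.35% were called lower in both lines. The median log2 fold change of the 9 tested members was -0.00146 in U251 and -0.71 in U87, beside medians of all tested genes of -6.211e-05 and 0.0. It was 0.14 in U251 without ANGPT2, which was at the limit of detection there, and with the GC correction described below it was -0.04 in U251 and -0.27 in U87. Ranges of treated and control libraries did not overlap for 7 of the 9 tested members in U251 (36.8% of all tested genes), for all 9 in U87 (62.4%) and, between the controls of the 2 lines, for all 9 (73.6%). FLT1 did not reach the count filter and was not tested.

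**Figure D1:**
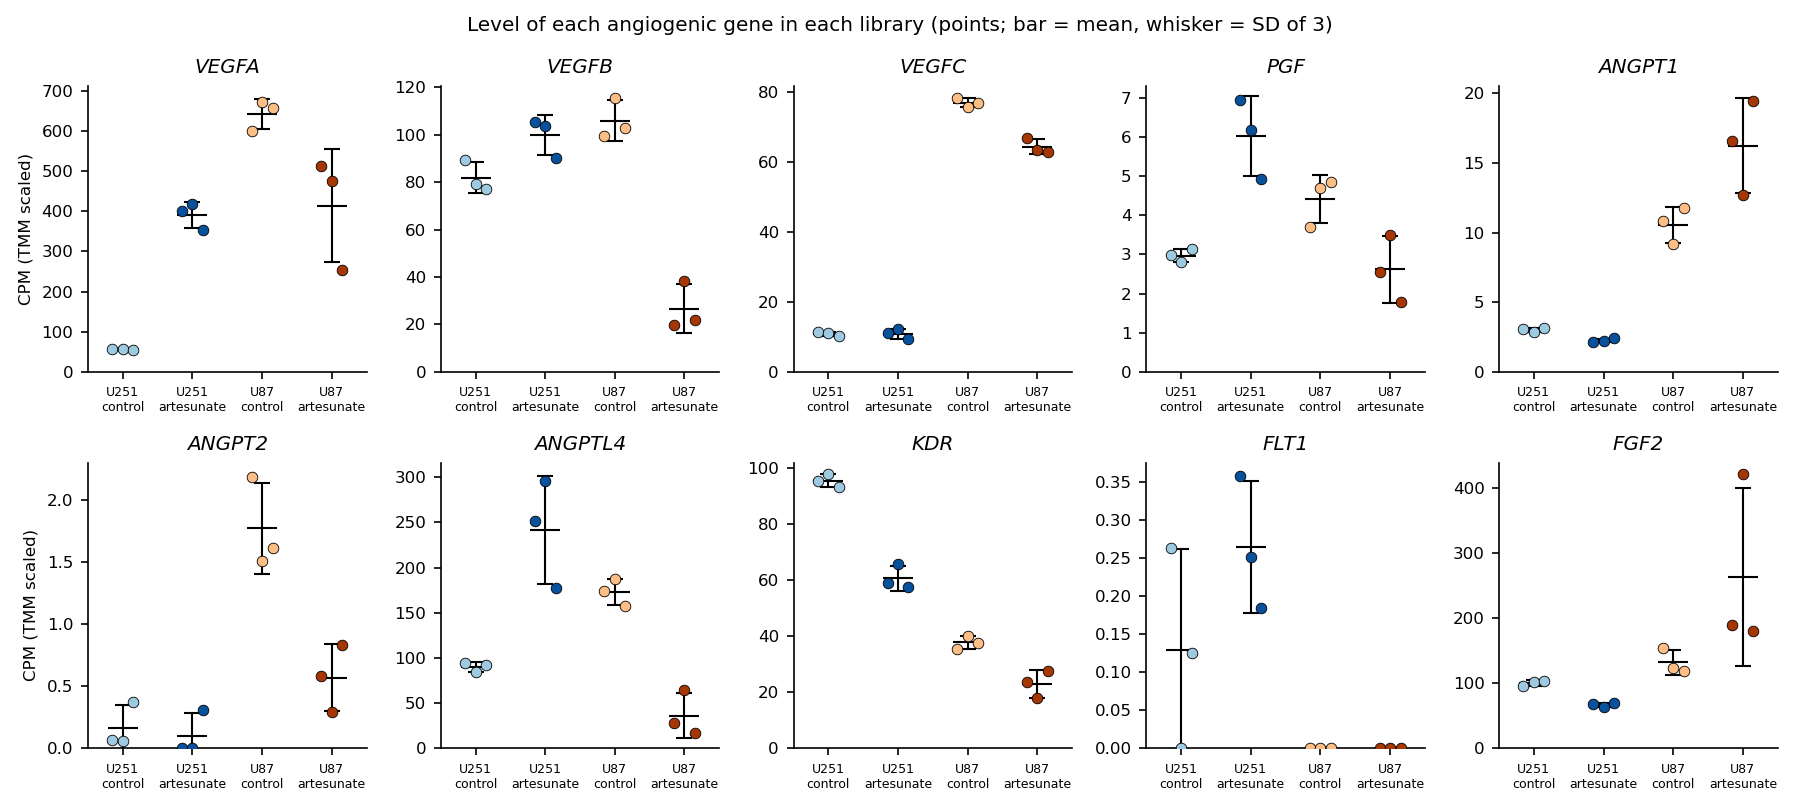
Level of each of the 10 genes in each of the 12 libraries, as CPM on a linear axis from 0; points are libraries, the bar is the mean and the whisker the SD of 3. VEGFA sat at 54.7 to 57.7 CPM in U251 controls and at 354.0 CPM or more with artesunate, while KDR was lower with artesunate in both lines.

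The changes in U87 moved with the GC content of the transcripts. When all tested genes were ranked by the GC content of their longest annotated transcript and cut into 5 equal parts, the median log2 fold change in U87 ran from 0.70 in the part poorest in GC through 0.42, 0.11 and -0.40 to -1.16 in the richest. In U251 the same medians ran from -0.19 to 0.25. The members span much of this range, from ANGPT1 (36.0% GC), FGF2 (37.5%) and ANGPT2 (38.7%) through FLT1 (45.1%), KDR (47.0%), VEGFC (51.4%), VEGFA (54.7%) and PGF (55.0%) to ANGPTL4 (63.3%) and VEGFB (66.7%). Each result was therefore also computed with an offset per library for GC content and transcript length. With these offsets 0 members were called higher and 4 lower in U87 (VEGFB, ANGPT2, ANGPTL4 and KDR), where 24.0% and 21.7% of all tested genes were called higher and lower (45.7% in either direction). In U251 the same 4 members were called with the offsets as without, beside 4.52% and 4.32% of all tested genes higher and lower (8.84% in either direction).

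**Figure D2:**
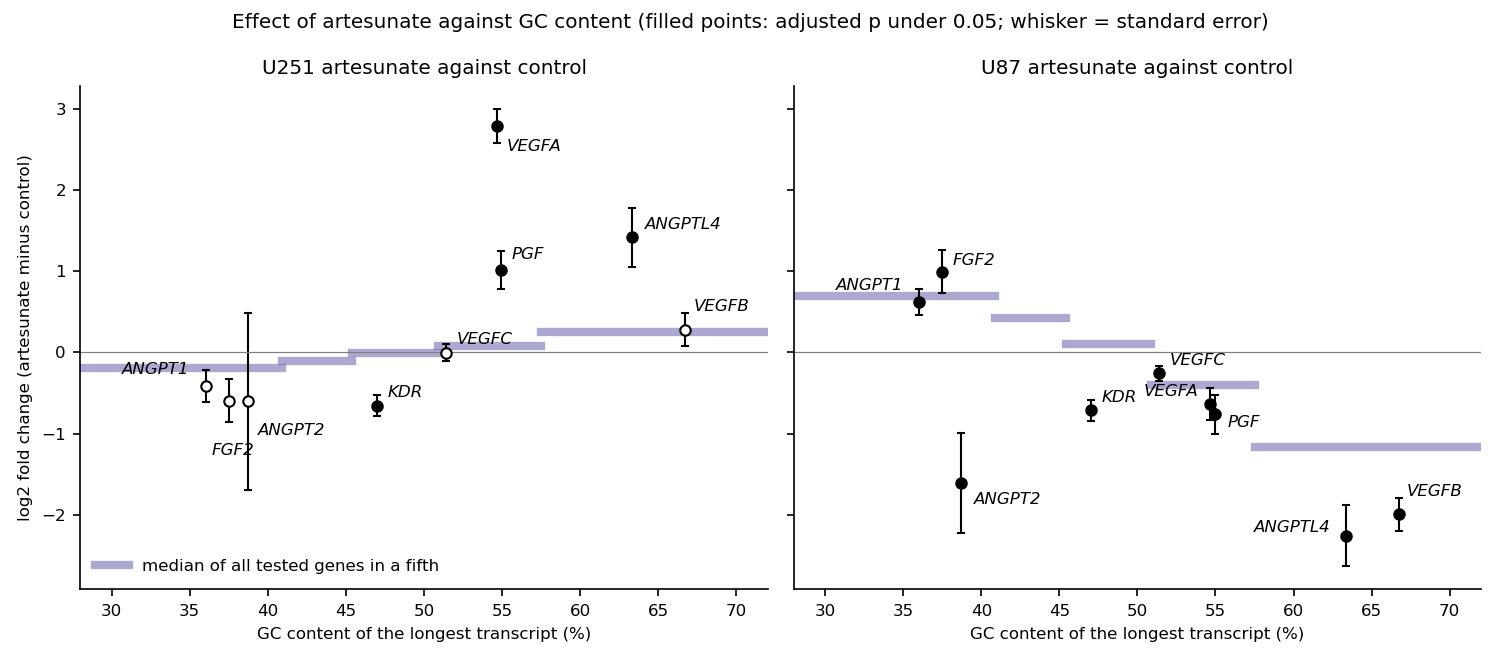
Log2 fold change (artesunate minus control) of the 9 tested members against the GC content of the longest transcript, in U251 (left) and U87 (right); filled points were called, whiskers are standard errors, and horizontal bars are medians of all tested genes in 5 equal parts of GC content. In U87 ANGPT1 and FGF2 lay near the raised bar of the GC-poor genes, ANGPT2 far below that bar (-1.61 against 0.70) and VEGFB and ANGPTL4 below the lowered bar of the GC-rich genes, whereas VEGFA in U251 stood far from the bars.

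Among the VEGF ligands, VEGFA (chromosome 6, 43770184 to 43786487, plus strand; GRCh38, as for all positions) had the largest change in U251, while VEGFB had the largest in U87. In U251 controls it stood at 57.2, 57.7 and 54.7 CPM, and with artesunate at 399.7, 418.7 and 354.0 CPM. The libraries of each group lay close together and the groups were far apart. The rise was 6.92-fold (log2 fold change 2.79 ± 0.21, standard error, adjusted p = 1.99e-05), the 58th highest fold change among the 17150 tested genes. It was called under all 22 alternative settings, with log2 values from 2.32 to 2.86, and was 2.61 with the GC offsets.

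U87 controls held 601.2, 672.1 and 657.6 CPM of VEGFA, and U87 cells with artesunate 512.9, 476.4 and 253.9 CPM. All 3 treated libraries lay below the controls, replicate 3 by far the most. The log2 fold change was -0.64 ± 0.20 (adjusted p = 0.0155), and -0.40 (adjusted p = 0.00356) without that library. With the GC offsets it was -0.24 ± 0.19 and no longer called (adjusted p = 0.335), and in a fit of only the 6 U87 libraries its adjusted p was 0.0506. The difference between the 2 lines' effects was 3.43 ± 0.29 log2 units (adjusted p = 5.84e-06) and 2.85 with the offsets, called under all 21 alternatives. Untreated U251 held 11.4-fold less VEGFA than untreated U87 (log2 difference -3.51 ± 0.22, adjusted p = 5.07e-08). The order of the group means was U251 control, U251 with artesunate (390.8 CPM), U87 with artesunate (414.4 CPM) and U87 control (643.6 CPM), and the ranges of the 2 treated groups overlapped.

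VEGFB (chromosome 11, 64234538 to 64238793, plus strand), a ligand of FLT1, had 89.4, 79.3 and 77.2 CPM in U251 controls and 105.2, 103.9 and 90.1 CPM with artesunate. The treated libraries were just above the controls, and the log2 fold change of 0.28 ± 0.20 was not called (adjusted p = 0.43). In U87 it went from 99.5, 115.6 and 102.9 CPM to 19.6, 38.4 and 21.8 CPM. The groups did not overlap, and the fall of 3.99-fold (log2 -2.00 ± 0.21, adjusted p = 8.8e-06) was the lowest p of any member in U87. With the GC offsets the U87 value was -0.44 and still called (adjusted p = 0.00031), and the U251 value was -0.03. The difference of the effects was 2.28 ± 0.29 (adjusted p = 6.83e-05), or 0.41 (adjusted p = 0.00792) with the offsets. The controls of the lines did not pass the test for VEGFB (-0.37 ± 0.20, adjusted p = 0.121) except in a fit of only the 6 controls (adjusted p = 0.00672) and without treated U87 replicate 2 (0.00407), and with the offsets the sign turned to 0.23 higher in U251 (adjusted p = 0.0101).

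VEGFC (chromosome 4, 176683538 to 176792727, minus strand), the lymphangiogenic ligand, differed far more between the lines than with the treatment. It had 11.3, 11.2 and 10.3 CPM in U251 controls and 11.1, 12.3 and 9.38 CPM with artesunate, and these overlapped (log2 fold change -0.00146 ± 0.10, adjusted p = 1.0). U87 controls held 78.4, 75.9 and 76.9 CPM, and U87 with artesunate 66.9, 63.6 and 63.0 CPM. Every treated U87 library was below every control, with a log2 fold change of -0.26 ± 0.10 (adjusted p = 0.0372). That call was lost with the GC offsets (-0.04, adjusted p = 0.745), without any 1 of the 3 U87 controls (adjusted p = 0.0537 to 0.0751) and without treated replicate 3 (0.0735). The 2 effects did not differ by the test (0.26 ± 0.14, adjusted p = 0.158), but did without treated U251 replicate 3 (0.36, adjusted p = 0.0343). Between controls VEGFC was 7.04-fold lower in U251 than in U87 (log2 difference -2.82 ± 0.10, adjusted p = 6.83e-10).

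PGF, the placental growth factor (chromosome 14, 74941834 to 74955784, minus strand), was low, with 28 to 98 counts a library. U251 controls had 2.97, 2.80 and 3.13 CPM and treated U251 cells 6.95, 6.18 and 4.94 CPM, with no overlap. The log2 fold change was 1.02 ± 0.24 (adjusted p = 0.0227). The adjusted p was 0.0698 to 0.0989 without any 1 of the 3 U251 controls or without treated replicate 1 or 2, and 0.0564 with the replicate number as a term. U87 controls had 3.70, 4.71 and 4.84 CPM and treated U87 cells 2.55, 3.50 and 1.79 CPM. The treated U87 libraries were lower, by -0.76 ± 0.24 (adjusted p = 0.0174), which was -0.27 (adjusted p = 0.311) with the GC offsets. Without U87 control replicate 2 or 3, or treated replicate 3, the adjusted p was 0.0504 to 0.0648. The effects differed between the lines by 1.78 ± 0.34 (adjusted p = 0.00105; 1.18 with the offsets), and PGF did not differ between the controls by the test (-0.57 ± 0.24, adjusted p = 0.0512), though it passed in 7 of 22 alternatives, among them without U87 control replicate 1 (-0.69, adjusted p = 0.0397) and without treated U87 replicate 2 or 3 (0.0225 and 0.0279).

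The mix of VEGF ligand transcripts was compared on the deposited FPKM, which divide by gene length. Summed over VEGFA, VEGFB, VEGFC and PGF, the level was 37.0 ± 2.53 FPKM (SD, n = 3) in U251 controls, 56.1 ± 4.19 in treated U251, 98.5 ± 3.27 in U87 controls and 51.5 ± 8.61 in treated U87. VEGFA made up 6.24% ± 0.35 of this sum in U251 controls and 27.8% ± 0.51 with artesunate, while the share of VEGFB went from 80.9% ± 0.89 to 63.5% ± 0.80. VEGFB stayed the most abundant ligand transcript of U251 by this measure. In U87 the share of VEGFA was 27.1% ± 0.78 in controls and 31.2% ± 7.19 with artesunate, and the share of VEGFC went from 32.5% ± 1.84 to 50.2% ± 7.41 as that of VEGFB went from 40.0% ± 1.59 to 18.2% ± 5.31. These FPKM carry no GC correction, and in U87 the log2 fold change of VEGFB went from -2.00 to -0.44 and that of VEGFC from -0.26 to -0.04 with the GC offsets on counts. The FPKM also depend on the length used for each gene. The ratio of CPM to FPKM, which is that length in kilobases up to 1 common scale, was 24.1 to 25.3 for VEGFA, whose longest annotated transcript has 12.2 kb, and 2.69 to 2.81 for VEGFB, whose longest has 1.38 kb. With the longest transcript as length instead, chosen after seeing the data, VEGFA made up 6.64% and 28.8% in the U251 groups and 31.4% and 39.2% in the U87 groups. In treated U87 cells VEGFA (39.2% ± 8.15) and VEGFC (37.5% ± 7.02) then lay within each other's spread, so neither led.

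**Figure D3:**
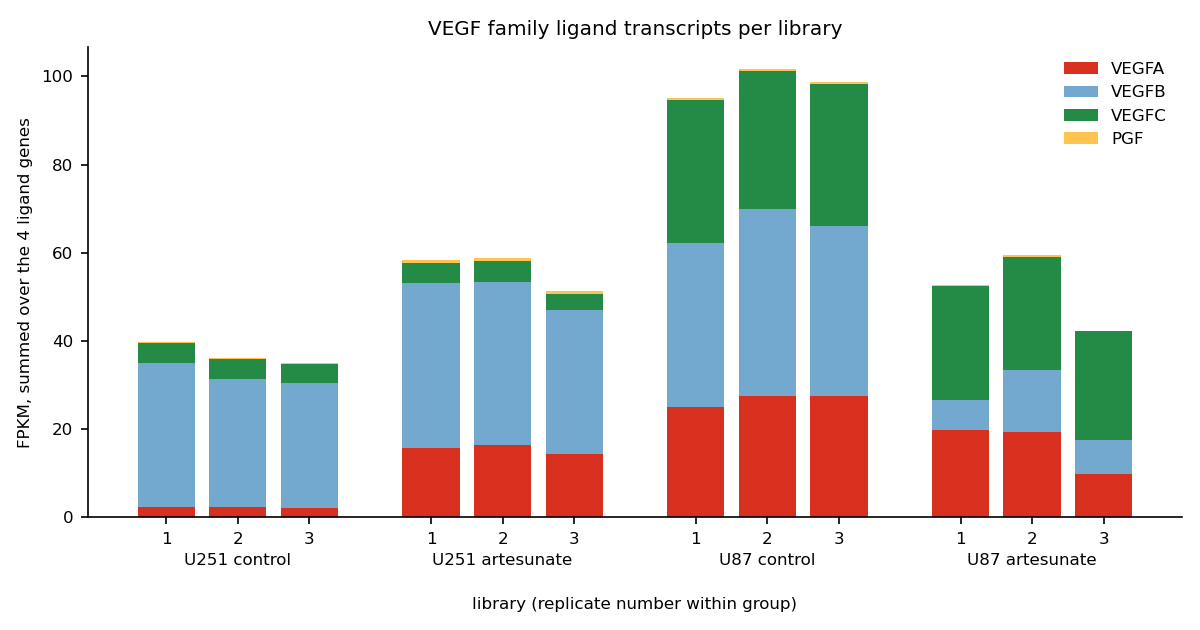
FPKM of the 4 VEGF ligand genes stacked for each library; bars are single libraries numbered by replicate within the group. The VEGFA part is small in the 3 U251 controls (5.84% to 6.51% of the sum) and larger in the 3 treated U251 libraries (27.2% to 28.1%), and the VEGFB part is small in treated U87 libraries (12.9% to 23.5%).

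The angiopoietins, ligands of the endothelial receptor TEK, were at low levels in both lines. ANGPT1 (chromosome 8, 107249482 to 107498055, minus strand), the agonist, had 3.04, 2.86 and 3.13 CPM in U251 controls and 2.15, 2.21 and 2.41 CPM with artesunate. The treated libraries were lower, but the log2 fold change of -0.41 ± 0.19 did not pass the test (adjusted p = 0.219). U87 had 10.8, 9.17 and 11.7 CPM without and 16.6, 12.7 and 19.5 CPM with artesunate. The U87 groups did not overlap, and the log2 fold change was 0.62 ± 0.16 (adjusted p = 0.00644). With the GC offsets it turned to -0.09 (adjusted p = 0.647), and the difference between the effects went from -1.03 ± 0.25 (adjusted p = 0.005) to -0.10 (adjusted p = 0.796). The level in U251 controls was 3.51-fold lower than in U87 controls (log2 -1.81 ± 0.18, adjusted p = 2.82e-06).

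ANGPT2 (chromosome 8, 6499651 to 6563409, minus strand), the context-dependent antagonist, had 1, 1 and 6 counts in U251 controls and 0, 0 and 5 with artesunate, at or near the limit of detection. U87 controls had 39, 25 and 26 counts and treated U87 libraries 8, 4 and 13. The U87 groups were apart, with a ratio of summed counts of 0.31 after scaling (95% exact binomial interval 0.19 to 0.49) and a log2 fold change of -1.61 ± 0.61 (adjusted p = 0.0398). The call was lost in 6 of 22 alternatives, among them those without any 1 of the 3 U87 controls and without treated replicate 1 or 2 (adjusted p = 0.0646 to 0.119). With the GC offsets the value was -2.23 (adjusted p = 0.00851). ANGPT2 was lower in U251 than in U87 controls (log2 -3.34 ± 0.73, adjusted p = 0.00164). Its locus lies within the span of MCPH1, on the other strand, and strandedness of the counting is not given in the sources used here. MCPH1 rose in U87 from 28.5 to 37.7 CPM where ANGPT2 fell (log2 fold change 0.41 ± 0.10, adjusted p = 0.00399).

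ANGPTL4 (chromosome 19, 8363289 to 8374373, plus strand) moved in opposite directions in the lines, as VEGFA and PGF did, whose U87 falls were not called with the GC offsets. U251 controls had 94.2, 84.2 and 92.7 CPM and treated U251 cells 251.9, 296.3 and 177.7 CPM. The treated libraries were all higher and more spread than the controls, and the rise was 2.68-fold (log2 1.42 ± 0.36, adjusted p = 0.0357). With any 1 of the 3 U251 controls left out, or treated replicate 1 or 2, the value was 1.24 to 1.46 and its adjusted p 0.0936 to 0.128. Leaving out any 1 of the U87 controls gave 1.41 to 1.43 with adjusted p of 0.0513 to 0.0547, and the GC offsets gave 1.14 (adjusted p = 0.0182).

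In U87, ANGPTL4 went from 174.7, 186.9 and 157.9 CPM to 27.5, 64.4 and 17.0 CPM. Treated replicate 2 was the highest of its group and still below all controls. The fall was 4.78-fold (log2 -2.26 ± 0.38, adjusted p = 0.000294), and -1.04 (adjusted p = 0.00656) with the GC offsets, and the call held in all 22 alternatives. The effects differed by 3.68 ± 0.52 log2 units (adjusted p = 0.000154), beside 3.43 ± 0.29 for VEGFA, and by 2.17 (adjusted p = 0.00105) with the offsets. Between the controls the value was -0.94 ± 0.36 (adjusted p = 0.0376), a call that was lost in 10 of 22 alternatives, among them without any 1 of the 6 controls or without treated U251 replicate 1 (adjusted p = 0.0505 to 0.0969). The 10 include the fit with the replicate number as a term, which compares the controls at a single replicate number, not at their means. ANGPTL4 shares its last base, 8374373, with the antisense gene RAB11B-AS1. That gene had a log2 fold change of 1.71 ± 0.34 in U251 (adjusted p = 0.0109) and -1.42 ± 0.40 in U87 (adjusted p = 0.00969), at 0.256 to 3.70 CPM.

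The promoters of ANGPTL4, which moved in opposite directions, and of KDR, the receptor that fell in both lines, are shown as the 250 bases before the RefSeq start. For ANGPTL4 that start is at 8364155, whereas the gene span of the deposited table begins at 8363289. The ANGPTL4 window therefore lies inside the gene span, not before it. Of the 10 members 7 had a promoter entry in the RefSeq table (GRCh38.p14), all but VEGFA, ANGPT1 and ANGPT2. Capitals mark matches on either strand to ACGTG and GCGTG (the cores of hypoxia response elements), GGGCGG (the GC box) and TATAAA (the TATA box), and a match is a description of the letters only. Of 35116 promoter windows of this length, 18.5% held ACGTG, 32.2% GCGTG, 42.6% GGGCGG and 10.7% TATAAA.
ANGPTL4, chr19:8363905-8364154, plus strand: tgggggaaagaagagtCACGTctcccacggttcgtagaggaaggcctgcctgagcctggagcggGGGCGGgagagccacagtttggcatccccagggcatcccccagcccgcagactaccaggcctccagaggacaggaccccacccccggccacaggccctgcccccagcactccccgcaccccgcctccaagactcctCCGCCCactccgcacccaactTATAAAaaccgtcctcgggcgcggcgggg
KDR, chr4:55125596-55125845, minus strand: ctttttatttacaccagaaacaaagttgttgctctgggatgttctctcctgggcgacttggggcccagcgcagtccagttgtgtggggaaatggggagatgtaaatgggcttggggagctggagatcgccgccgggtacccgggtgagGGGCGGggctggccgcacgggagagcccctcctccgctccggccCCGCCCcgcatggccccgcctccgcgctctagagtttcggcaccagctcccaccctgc
The ANGPTL4 window held 1 ACGTG (on the opposite strand, first base at -234 from the start), 2 GGGCGG (at -186 and -50) and 1 TATAAA (at -29). The KDR window held 2 GGGCGG (at -102 and -58) and none of the other 3 motifs. Their GC contents were 68.8% and 65.2%.

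KDR (chromosome 4, 55078477 to 55125589, minus strand), the main signalling receptor for VEGFA, was present in both lines. U251 controls had 95.3, 98.0 and 93.3 CPM and treated U251 cells 58.9, 65.8 and 57.4 CPM. U87 controls had 35.6, 40.3 and 37.6 CPM and treated U87 cells 23.7, 17.8 and 27.6 CPM. In both lines every treated library lay below every control. The log2 fold changes were -0.65 ± 0.13 in U251 (adjusted p = 0.0111) and -0.71 ± 0.13 in U87 (adjusted p = 0.000718), and each was called under all 22 alternatives, with -0.67 and -0.90 under the GC offsets. The effects differed by 0.06 ± 0.19 (adjusted p = 0.836), which does not show them to be equal at the 2 doses. U251 controls held 2.53-fold more KDR than U87 controls (log2 1.34 ± 0.13, adjusted p = 3.22e-06), and KDR was the only tested member called higher there, beside 5 called lower, where 32.5% and 32.3% of all tested genes were called (64.8% in either direction). With the GC offsets VEGFB was also called higher in U251 controls, and FGF2 was called lower in place of ANGPTL4, so that 2 were called higher and 5 lower, beside 33.5% and 33.1% of all tested genes (66.5% in either direction).

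FLT1 (chromosome 13, 28300344 to 28495145, minus strand), the receptor for VEGFB and PGF, was barely detected. U251 controls had 4, 0 and 2 counts and treated U251 libraries 5, 4 and 3, which overlap, with a scaled ratio of 2.02 (95% exact binomial interval 0.70 to 6.56). All 6 U87 libraries had 0 counts, which allows up to 0.220 CPM in a library.

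FGF2 (chromosome 4, 122826708 to 122898236, plus strand) had 95.7, 102.6 and 103.4 CPM in U251 controls and 67.6, 62.8 and 69.7 CPM with artesunate. The groups were apart, but the log2 fold change of -0.59 ± 0.26 did not pass the test (adjusted p = 0.2). It passed in a fit of only the 6 U251 libraries (-0.60, adjusted p = 0.00265) and without treated U87 replicate 2 (adjusted p = 0.00332). That U87 library was the high one: U87 controls had 154.1, 123.5 and 118.7 CPM and treated U87 libraries 189.0, 421.2 and 180.3 CPM. All 3 treated U87 libraries lay above the controls. The U87 log2 fold change was 1.00 ± 0.26 (adjusted p = 0.00645), 0.47 ± 0.11 (adjusted p = 0.003) without replicate 2, and 0.33 (adjusted p = 0.37) with the GC offsets. The effects differed by -1.59 ± 0.37 (adjusted p = 0.00397), or -0.76 (adjusted p = 0.183) with the offsets. The antisense gene NUDT6 overlaps FGF2 and had 3.53 to 8.63 CPM in any library, with log2 fold changes of -0.48 ± 0.16 in U251 (adjusted p = 0.101) and -0.21 ± 0.16 in U87 (adjusted p = 0.282). FGF2 did not differ between the controls by the test (-0.39 ± 0.26, adjusted p = 0.207), but was called lower in U251 with the GC offsets (-1.0, adjusted p = 0.00848), in a fit of only the 6 controls (-0.40, adjusted p = 0.0112) and without treated U87 replicate 2 (-0.40, adjusted p = 0.00391).

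**Figure D4:**
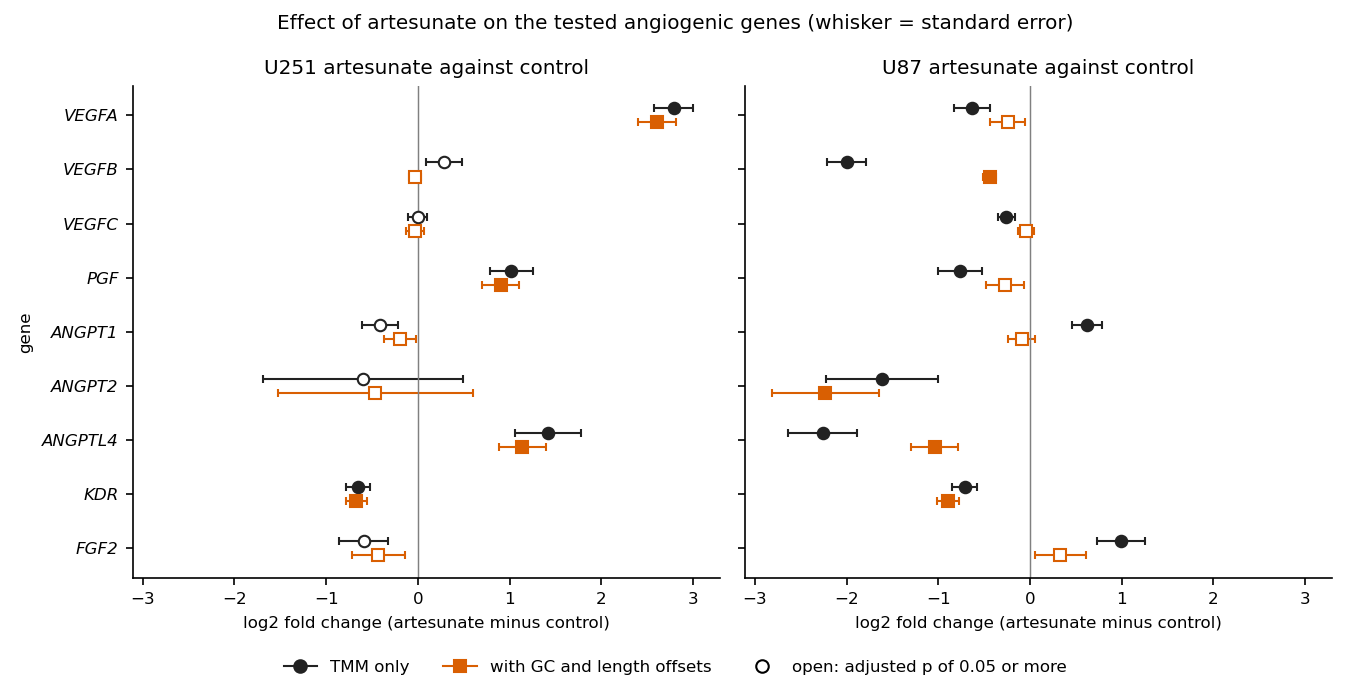
Log2 fold change (artesunate minus control) of the 9 tested members in U251 (left) and U87 (right), with TMM scaling only (circles) and with added GC and length offsets (squares); whiskers are standard errors and open symbols were not called. VEGFA, PGF and ANGPTL4 kept their calls in U251, whereas in U87 the VEGFA value moved from -0.64 to -0.24 and the ANGPT1 value from 0.62 to -0.09.

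The effects of artesunate differed between the lines for 6 of the 9 tested members, 4 with the higher value in U251 (VEGFA, VEGFB, PGF and ANGPTL4) and 2 with the lower (ANGPT1 and FGF2), where 24.1% and 25.3% of all tested genes were called in these directions (49.4% in either). With the GC offsets 4 were called higher in U251 and 0 lower, beside 14.1% and 15.9% of all tested genes (30.0% in either direction). Thus the differences of VEGFA, VEGFB, PGF and ANGPTL4 were called with and without the offsets.

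Other genes of the same pathways were read from lists chosen by function. For the counts of every list, 4.09% of all tested genes were called higher and 4.26% lower in U251, and 29.2% in each direction in U87. With the GC offsets these shares were 4.52% and 4.32% in U251, and 24.0% and 21.7% in U87. Of 14 further receptors and co-receptors, 12 were tested. In U251 1 rose, ITGB3 (integrin beta 3, a partner of KDR), from 13.4 to 21.3 CPM (log2 0.66 ± 0.08, adjusted p = 0.000632). In U87 3 rose and 6 fell. NRP1, a VEGF co-receptor, rose there from 443.5 to 623.5 CPM (0.49 ± 0.08, adjusted p = 0.000273, and 0.18 with the GC offsets), and SDC1, a heparan sulfate proteoglycan, fell from 200.9 to 50.3 CPM (-2.00 ± 0.19, adjusted p = 3.95e-06, and -1.02 with the offsets). The angiopoietin receptor TEK, singled out after its values were seen, was at 0.0620 and 0 CPM in the U251 groups, under the limit of detection, and fell from 3.95 to 1.96 CPM in U87 (-1.0 ± 0.34, adjusted p = 0.0276). The list's median log2 fold change was -0.05 in U251 and -0.43 in U87, or -0.04 and -0.62 without genes at or under the limit of detection in both groups. It was -0.16 and -0.10 with the GC offsets, with 2 called higher and 5 lower in U87.

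Of 20 other secreted angiogenic factors, 15 were tested. ADM, the vasodilator peptide adrenomedullin, rose in U251 from 12.3 ± 3.78 to 37.4 ± 12.5 CPM (log2 1.60 ± 0.34, adjusted p = 0.0162). PDGFD fell in U251 from 31.6 to 21.6 CPM (-0.55 ± 0.12, adjusted p = 0.0357). With the GC offsets the PDGFD value was -0.40 and no longer called (adjusted p = 0.081). In U87 ADM was not called (0.35, adjusted p = 0.377) except with the GC offsets (1.20, adjusted p = 0.00825). There 3 genes of the list rose and 6 fell, where 29.2% of all tested genes were called in each direction. Among those that rose, VEGFD was at 0 CPM in U87 controls and 0.364 ± 0.334 CPM with artesunate, close to the limit of detection. CXCL8, the chemokine interleukin 8, rose from 137.9 ± 19.9 to 917.9 ± 144.4 CPM in U87 (2.74 ± 0.14, adjusted p = 6.38e-08), and by 2.00 with the GC offsets. APLN, the vascular peptide apelin, fell from 85.2 ± 9.41 to 0.644 ± 0.354 CPM (-7.06 ± 0.32, adjusted p = 3.32e-08, and -6.47 with the GC offsets). In U251 APLN was at 1.88 and 3.20 CPM and did not pass the test (adjusted p = 0.132). CXCL8 was at 139.3 and 164.1 CPM in U251 and was not called (0.24 ± 0.13, adjusted p = 0.306). With the GC offsets CXCL8 was called higher there (0.55, adjusted p = 0.0125). The list's median log2 fold change was 0.24 in U251 and -0.27 in U87, or 0.19 and -0.27 with undetected members left out and those at 0 in 1 group set to their bound, and 0.17 and -0.19 with the GC offsets. With the offsets 2 genes were called higher and 0 lower in U251, and 3 higher and 5 lower in U87. Of 7 other angiopoietin-like genes only ANGPTL2, named for that reason after the values were seen, was tested, and it was called in neither line (at 10.1 and 7.59 CPM in U87, adjusted p = 0.214, and 0.0405 and 0 CPM in U251).

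Of 16 genes listed as endogenous inhibitors of angiogenesis, 13 were tested, among them VASH2, which is not a settled inhibitor. In U251 0 rose and 1 fell, SEMA3A, a semaphorin that competes for neuropilin, from 262.6 to 208.6 CPM (log2 -0.33 ± 0.09, adjusted p = 0.0458). With the GC offsets its U251 value was -0.16 and no longer called (adjusted p = 0.174). In U87 2 rose and 7 fell, VASH2 among the latter, where 29.2% of all tested genes were called in each direction. SEMA3A rose there from 9.17 to 30.2 CPM (1.72 ± 0.10, adjusted p = 1.52e-07, and 0.97 with the offsets), and THBS2, an antiangiogenic matrix glycoprotein, fell from 46.4 to 30.8 CPM (-0.59 ± 0.09, adjusted p = 0.000174). The median log2 fold changes were 0.02 and -0.59, or 0.07 in U251 with undetected genes left out, and -0.09 and -0.39 with the GC offsets. With the offsets 0 were called in U251, and 3 were called higher and 5 lower in U87.

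All 13 genes listed as regulators of VEGFA or ANGPTL4 were tested. In U251 4 rose and 0 fell, while in U87 4 rose and 2 fell. The list also holds VHL, EGLN1 and EGLN3, which are not transcription factors. EGLN1 and EGLN3 were among the 4 that rose in U251, so that count is not one of activators. Of all tested genes, 4.09% were called higher and 4.26% lower in U251, and 29.2% in each direction in U87. ATF4, the transcription factor of the integrated stress response, which can bind VEGFA, rose in both lines, from 134.7 to 371.5 CPM in U251 (log2 1.46 ± 0.07, adjusted p = 5.49e-07) and from 168.4 to 546.2 CPM in U87 (1.70 ± 0.07, adjusted p = 1.6e-08). Its values with the GC offsets were 1.33 and 2.40, and the difference of its effects went from -0.23 (adjusted p = 0.0617) to -1.07 (adjusted p = 1.89e-05). EGLN3, a prolyl hydroxylase that hypoxia-inducible factors induce, was singled out after its values were seen. It rose in U251 from 8.70 ± 1.29 to 109.0 ± 4.84 CPM (3.65 ± 0.27, adjusted p = 1.85e-05) and was at 1.05 and 1.30 CPM in U87 (0.27 ± 0.38, adjusted p = 0.572). PPARD, a nuclear receptor that induces ANGPTL4, fell in U87 from 33.4 to 21.8 CPM (-0.61 ± 0.13, adjusted p = 0.00127), and was 0.25 higher with the GC offsets (adjusted p = 0.00466). The median log2 fold changes were 0.17 in U251 and 0.27 in U87, or 0.18 in U251 with undetected genes left out, and 0.09 and 0.17 with the GC offsets. With the offsets 4 were called higher and 0 lower in U251, and 5 higher and 1 lower in U87.

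**Figure D5:**
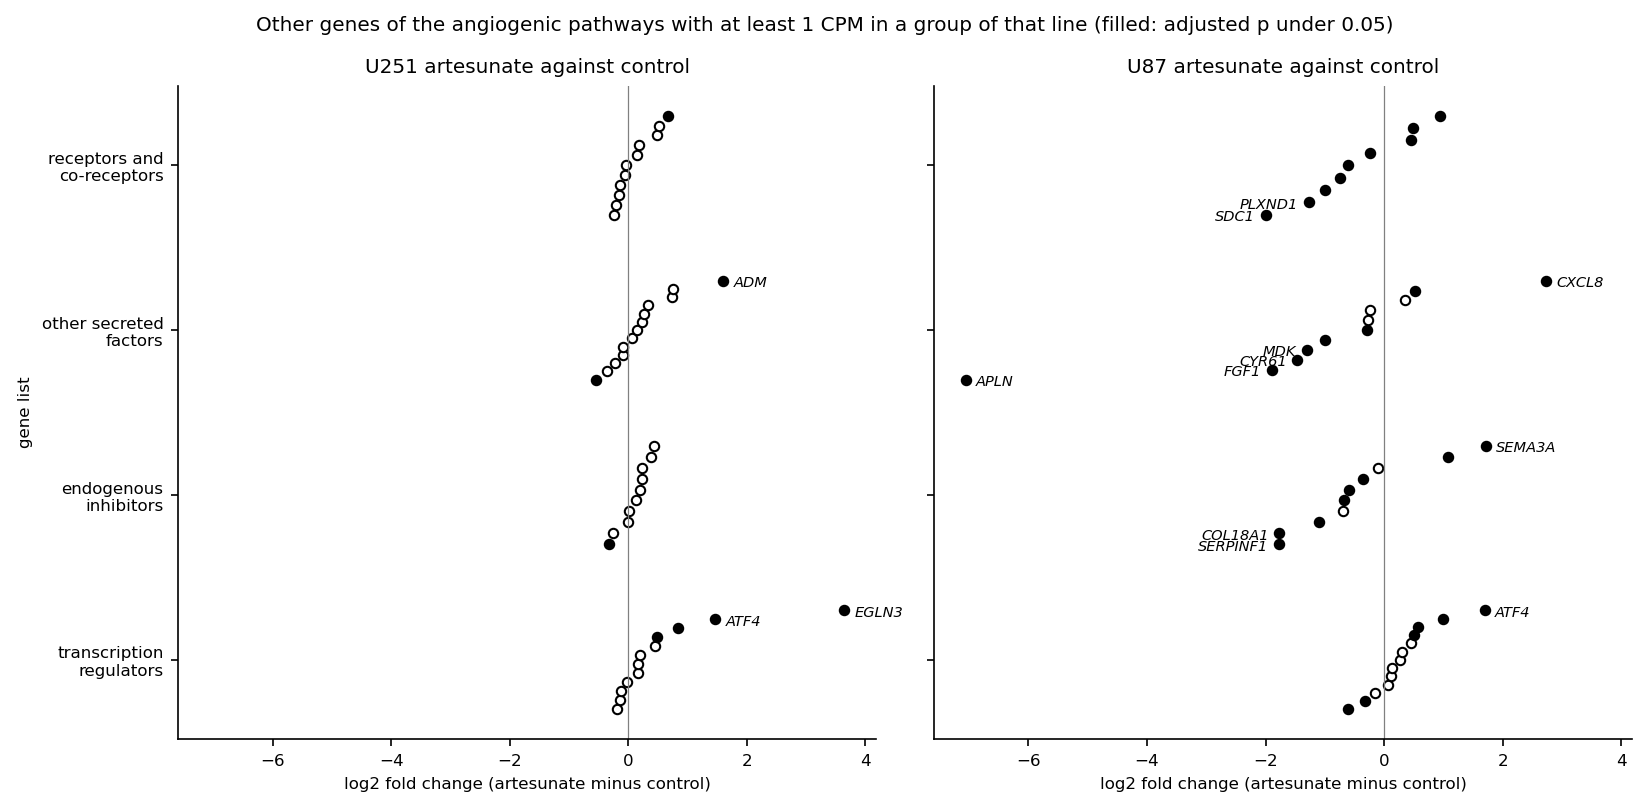
Log2 fold change (artesunate minus control) of the other genes of the angiogenic pathways whose mean reached 1 CPM in a group of the line shown, 1 point per gene, in U251 (left) and U87 (right); filled points were called, and the labelled ones are those of the largest change. In U251 the points beyond 1 log2 unit were ADM, ATF4 and EGLN3, whereas in U87 the points ran from APLN at -7.06 to CXCL8 at 2.74.

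Likeness of pattern was measured as Pearson's r over log2 CPM of the 12 libraries, which share the difference between the lines, so it is a description only. The protein-coding genes most like VEGFA were PPP1R3B (r = 0.981), EIF4EBP1 (0.962), AC023055.1 (0.955), SEC16A (0.953) and F3, tissue factor (0.949). These genes, like VEGFA, were lowest in U251 controls. EIF4EBP1, a translation repressor, had log2 fold changes of 1.28 in U251 and -0.48 in U87, beside 2.79 and -0.64 for VEGFA. The genes most like ANGPTL4 were COPS7B (0.988), GAK (0.978) and RXRA (0.975), the last a partner of PPAR receptors, with log2 fold changes of 0.43 in U251 and -0.97 in U87. Those most like PGF were KDM4B (0.961), SLC6A8 (0.959) and SPTBN4 (0.95). For VEGFB the leading genes were PDXP (0.997), RPS6KA4 (0.996) and SCAF1 (0.996), and for VEGFC PARVB (0.999), TSHZ3 (0.999) and BASP1 (0.998). ANGPT1 was most like OSBPL1A (0.997), RPL22L1 (0.994) and IL13RA1 (0.994), and ANGPT2 most like TRPV2 (0.949), AL139353.1 (0.936) and NR1H3 (0.933). KDR was most like TTF2 (0.995), KIF4A (0.994) and LSM2 (0.989), of which KIF4A is a kinesin of mitosis, and FGF2 was like TMEM232 (0.944) and CYP20A1 (0.943).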

How the data were processed

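RNA of 12 samples was sequenced, 3 in each of 4 groups taken from the sample titles. Per the submitters' processing notes, the tools were fastp for read cleaning, HISAT2 2.1.0 for alignment (GRCh38.91 in the series text), StringTie 1.3.3b for quantification and edgeR 3.30.3. The deposited table holds whole-number counts per gene, which are not normalized, per the file headers. The FPKM beside them are the authors' values after TMM normalization, per the series text. How the counts were made from the alignments and whether strand was used are not given in the sources used here. The authors' own fold changes were not used.

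The test used edgeR 4.0.16 under R 4.3.3 (TMM, filterByExpr with minimum count 10 and minimum total 15, 1 mean per group over all 12 libraries, quasi-likelihood F test), which left 17150 of 35237 genes with a count. The common biological coefficient of variation was 0.183. The standard error was taken as the size of the log2 fold change divided by the root of the F statistic. Alternatives were DESeq2 1.42.0, limma 3.58.1 on log2(FPKM + 1) or log2(FPKM + 0.1), other scalings and filters, each line alone, the replicate number as a term, offsets from natural splines (6 degrees of freedom) of GC content and transcript length, and each library left out. GC content and length were those of the longest GENCODE release 29 transcript, found for 99.6% of tested genes. The scripts were tested on simulated counts with few changed genes and no GC trend. That test does not cover U87, where 58.3% of all tested genes were called.

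The members and gene lists were chosen with earlier results of these data known. Genes named are all members, from each list the called gene with the smallest p in each direction and line, tested genes that overlap a member, and the genes most alike in pattern. TEK, EGLN1, EGLN3, VHL, VASH2, ANGPTL2 and VEGFD were named outside this rule after their values were seen. So were the markers given for their level only (VIM, and those at 0). A gene that this rule names is not reported here. Lists cover receptors, other secreted factors, angiopoietin-like genes, inhibitors, regulators and markers of glioma, endothelium, pericytes and leukocytes.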

Additional observations from a re-analysis of the deposited data

Results flagged for a closer look

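For 6 members the artesunate effect in U251 minus that in U87 passed the test of the difference itself (edgeR's quasi-likelihood test, adjusted over 17150 genes). The differences were 3.43 log2 units for VEGFA, 2.28 for VEGFB, 1.78 for PGF, -1.03 for ANGPT1, 3.68 for ANGPTL4 and -1.59 for FGF2. They share the 12 libraries, and line and dose cannot be told apart. Of all tested genes 49.4% passed the same test. The median difference of the tested genes ran from -0.88 in the fifth poorest in GC to 1.39 in the richest. With GC and length offsets the values were 2.85, 0.41, 1.18, -0.10, 2.17 and -0.76, the last no longer called, nor was that of ANGPT1.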

How the results depend on the processing

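Of 782 values of the 36 member results under the alternatives, 702 kept their direction and side of the threshold, 49 lost the call, 19 gained it and 12 changed sign. The number of genes called in U251 (1431) was 864 without the filter, 2892 with only the U251 libraries, 2328 with DESeq2, 2154 with limma on log2(FPKM + 1), and 652 to 2582 with 1 library left out, from 652 to 775 without any 1 of the U251 controls or without U251 artesunate replicate 1 or 2, and 2582 without U87 artesunate replicate 2. The number for the difference of the effects (8477) was 5140 with the GC and length offsets. Signs changed with the offsets for VEGFB in U251 (-0.0326), ANGPT1 in U87 (-0.0926) and VEGFB between controls (0.229). VEGFC in U251 changed sign without the filter (0.0232). With 1 library left out the values ran from -0.0993 to 0.1 for VEGFC in U251, from -4.45 (without artesunate replicate 3) to 0.691 (without control replicate 3) for ANGPT2 in U251, from -2.84 (without U251 artesunate replicate 3) to 2.31 for the difference of ANGPT2, and from -0.0907 (without U87 artesunate replicate 2) to 0.24 for that of KDR. The cause of these changes was not tested. With 3 counts a library as the limit of detection, ANGPT2 in U251 and FLT1 allowed no statement on change.

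Same-numbered control and treated samples did not deviate together (r of their deviations from the group means 0.041, 0 and 0.038 in U251, and 0.053, 0.05 and -0.009 in U87), so the replicate numbers were not taken to pair samples. With the replicate number as a block the numbers of genes called were 1170 in U251, 9725 in U87, 8318 for the difference and 8434 between controls, against 1431, 10005, 8477 and 11115 without it. Between controls the block fit compares the lines at a single replicate number, not at their means. Its 8434 and 11115 are therefore not counts for the same quantity, and the same holds for a call lost there. Under the block PGF in U251 (adjusted p = 0.0564) and ANGPTL4 between controls (0.158) were not called, and no other member's call changed. Not every sample correlated best with its own number.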

Other observations

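Markers of other cell types were read beside the angiogenic genes. For the counts of every marker list, 4.09% of all tested genes were called higher and 4.26% lower in U251, and 29.2% in each direction in U87. Of 8 tested astrocyte and glioma markers, 1 rose and 1 fell in U251 and 1 rose and 3 fell in U87. SOX9, a glial transcription factor, rose in U251 from 78.1 to 192.6 CPM (log2 1.30 ± 0.09, adjusted p = 8.87e-06, edgeR's quasi-likelihood test as for all values here). In U87 SOX9 fell from 6.6 to 3.52 CPM (-0.91 ± 0.11, adjusted p = 2.27e-05, and -0.77 with GC and length offsets). NES, the intermediate filament nestin, fell in U87 from 70.8 to 11.9 CPM (-2.57 ± 0.13, adjusted p = 6.59e-08, and -1.69 with the offsets). OLIG2 was at 0.146 and 0 CPM in U251, under the limit of detection, and rose in U87 from 3.16 to 7.38 CPM (1.22 ± 0.27, adjusted p = 0.00311, and 2.08 with the offsets).

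Of 6 tested endothelial markers 0 were called in U251 and 1 in U87, CDH5, at 0.242 and 0 CPM. Of 5 tested pericyte and smooth muscle markers 0 were called in U251, and in U87 1 rose and 2 fell. There 29.2% of all tested genes were called in each direction. CSPG4, a proteoglycan of pericytes and glial progenitors, fell from 275.9 to 80.7 CPM in U87 (-1.77 ± 0.32, adjusted p = 0.000565, and -0.60 with GC and length offsets), and RGS5, a pericyte regulator of G protein signalling, rose from 3.82 to 6.40 CPM (0.74 ± 0.19, adjusted p = 0.00472, and 0.03, not called, with the offsets). Of 2 tested leukocyte and microglia markers 0 were called in U251 and both fell in U87, among them CSF1R from 20.4 to 7.31 CPM (-1.48 ± 0.23, adjusted p = 0.000196, and -0.75 with the offsets), while AIF1 and CD3E were at 0 in all groups. With the offsets only 1 of the 2 tested leukocyte and microglia markers, CSF1R, was called lower in U87. The part of these cell type markers in the changes of the angiogenic genes was not tested.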
